A study of Mus musculus with 4 samples.

Results

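The Lin28 RNA-binding proteins, the growth and stem cell genes repressed by the microRNA let-7, and the Igf2bp mRNA-binding proteins were examined in whole mouse embryos that lack Nr6a1, a nuclear receptor formerly called Gcnf. The members were listed by symbol (Lin28a, Lin28b, Hmga1, Hmga2, Igf2bp1, Igf2bp2, Igf2bp3, Trim71 and Arid3a), and every probe set that the platform annotation gives to such a symbol alone was taken. This gave 20 probe sets of 7 genes, of 45037 probe sets and 18193 named genes in all. Hmga1 and Igf2bp2 were not analysed here, because the annotation used gives neither symbol to any probe set. Whole-embryo RNA from 2 Gcnf-/- and 2 wt mice, all labelled E9.0 (days of embryonic development), was measured on Affymetrix whole-genome arrays, 1 embryo per array. The study's methods give the embryos a range of stages that begins at E9.0. Gcnf-/- embryos are homozygous for a null allele in every tissue, and wt embryos carry none. The mouse line was kept on 1 inbred background, and loss of the gene is lethal to the early embryo. The labels and methods give no somite number, so that genotype and a difference in developmental stage cannot be told apart. The samples were whole embryos, in which fewer cells of a type and less RNA per cell cannot be told apart.

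Lin28a and Lin28b are paralogous proteins that bind precursors of let-7 and block their maturation. Mature let-7 in turn pairs with sites in the 3′ untranslated regions of Lin28 and of growth genes such as Hmga2, Igf2bp1, Trim71 and Arid3a, so that Lin28 and let-7 repress each other. In the mouse tailbud this circuit helps to set how long the axis keeps elongating, and Nr6a1 mRNA itself carries let-7 sites. The arrays measured polyadenylated transcripts and not mature let-7.

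The let-7 sequences are shown because both directions of this circuit are read from them. The RefSeq entries used here hold 11 mature names of the let-7 and miR-98 family at 13 loci on GRCm38.p6, which may not be every locus. Of these names, 10 share the seed GAGGUAG, while let-7j has GAGGUAU. Some of them follow with the seed, bases 2 to 8 from the 5′ end, in capitals.
let-7a-5p: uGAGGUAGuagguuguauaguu
let-7d-5p: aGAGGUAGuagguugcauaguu
let-7e-5p: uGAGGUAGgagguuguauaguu
let-7g-5p: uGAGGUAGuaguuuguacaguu
let-7j: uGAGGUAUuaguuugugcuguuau
Among those shown, let-7j alone has the other seed.

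Lin28 proteins recognise GGAG in the loop of the let-7 precursor. Of the 11 family precursors for which the RefSeq entries used list both mature arms, 8 hold GGAG between the arms and 3 do not. A precursor loop with the motif (let-7g, let-7d) and without it (let-7b) is shown for comparison, with GGAG in capitals.
let-7g loop: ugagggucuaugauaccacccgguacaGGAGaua
let-7d loop: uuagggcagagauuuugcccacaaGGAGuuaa
let-7b loop: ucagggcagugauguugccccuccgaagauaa
The motif lies close to the 3′ arm in the loops that have it. A match is a description of the letters and not a measured binding site.

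Signals are RMA log2 values, so that a difference of 1 is 2-fold. The arrays of a genotype correlated at 0.9973 to 0.9975 across probe sets and those of different genotype at 0.9931 to 0.9952. Xist and the Y-linked genes gave wt replicate 1 as a female embryo and the other embryos as male. The 18S ribosomal RNA control probe sets averaged 10.83 and 10.74 in Gcnf-/- embryos, against 9.45 and 9.99 in wt embryos. The 24 poly-A spike control probe sets averaged 10.38 and 10.30 in Gcnf-/- embryos, against 9.61 and 10.33 in wt embryos, so that wt replicate 1 was the lowest in both. The 5 Nr6a1 probe sets lay above wt in Gcnf-/- embryos by 0.05 to 0.56 and none passed the test. The place of these probes relative to the deleted part is not known here, so that they do not check the labels. Sets of 6 markers for neural progenitors, heart muscle, primitive erythroid cells, endoderm and somites were all measured.

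No member passed the test, while most of them read slightly below wt in Gcnf-/- embryos. Of the 20 probe sets, 18 had a lower mean in Gcnf-/- embryos than in wt embryos, against 52.9% of all probe sets, and the median log2 fold change was -0.22, against -0.01 over all. By brightest probe set, 6 of 7 genes lay below wt, against 52.8% of all genes. The 6 include Igf2bp3, at -0.004, and Lin28b, at -0.09 with a signal near the bottom of the scale. Both had overlapping groups. Several probe sets report on the same gene, so that the 20 values are not independent. Lin28a, Hmga2, Igf2bp1 and Arid3a stood at -0.23 to -0.30 by their brightest probe set, or 81.4% to 85.4% of the wt signal.

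In limma, 0 of the 20 probe sets passed an adjusted p of 0.05 with a change of at least 2-fold, the rule of the study's methods, against 0.0777% of all probe sets called lower and 0.304% called higher. Without the fold threshold 0 passed as well, against 0.255% lower and 0.719% higher, and the lowest adjusted p among the members was 0.0859. At an unadjusted p under 0.05 in limma there were 10 lower and 1 higher, against 10.3% lower and 9.83% higher among all. The 95% confidence interval of the difference lay within 2-fold for 19 of the 20 probe sets and reached it for 1 of Lin28a. Of the 20 probe sets, 14 carry no suffix for probes that can match several transcripts. Nothing in the labels says that the RNA samples came from separate litters, and the p-values measure the spread between these arrays.

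Groups of 2 arrays can be described by their overlap. Both Gcnf-/- values lay below both wt values in 15 of the 20 probe sets, against 27.3% of all probe sets, and above them in 1, against 23.5%. The 15 include Igf2bp1 1418761_at, whose values were almost equal (log2 fold change -0.02). The members were chosen with earlier results of these data known, which limits this contrast and those above. Among the probe sets with a mean signal of at least 6, where 19 members remain, the lower share was 78.9% for the members and 31.9% for all 28202.

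**Figure D1:**
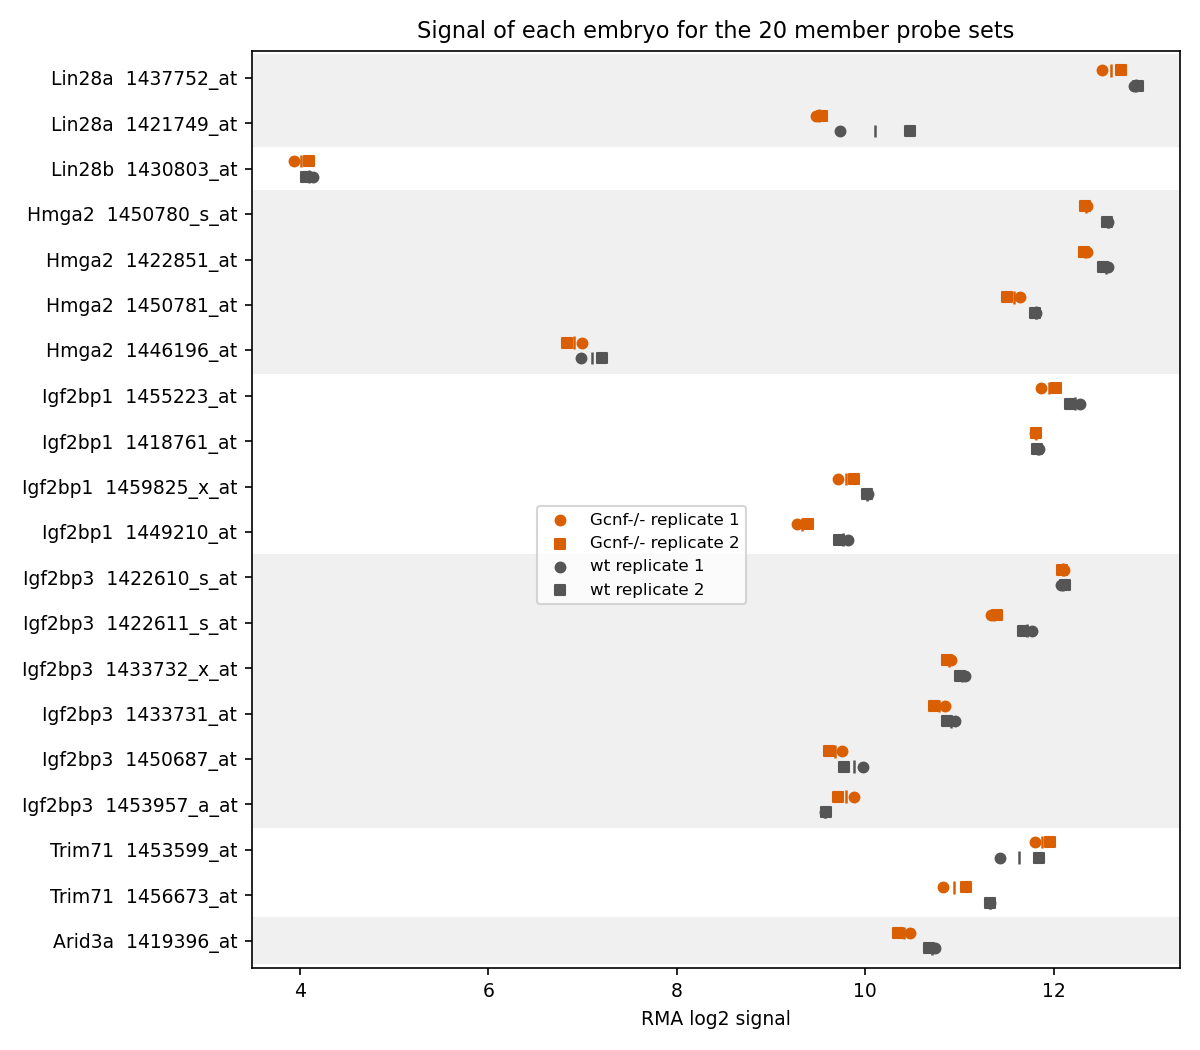
Signal of the 20 probe sets (horizontal axis, RMA log2 value), with Gcnf-/- in orange above wt in grey, circles and squares for replicates 1 and 2 and vertical bars for group means. In 15 probe sets both orange points lie left of both grey ones, Trim71 and Igf2bp3 each have a probe set with the orange mean to the right, and Lin28b lies near 4 in all embryos.

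Lin28a, the family member of pluripotent cells and early embryonic tissues, had 2 probe sets that agreed in direction and not in size. The brighter, 1437752_at, read 12.51 and 12.71 in Gcnf-/- embryos, against 12.85 and 12.89 in wt embryos. Both mutants were below both wt embryos, and the gap between the closest values, of Gcnf-/- replicate 2 and wt replicate 1, was smaller than that between the mutants. The log2 fold change was -0.26 (95% confidence interval -0.49 to -0.03, limma adjusted p = 0.213), or 83.5% of the wt signal. Without Gcnf-/- replicate 1 it was -0.16 and without Gcnf-/- replicate 2 it was -0.36.

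The second probe set of Lin28a, 1421749_at, read 9.48 and 9.54 in Gcnf-/- embryos, against 9.74 and 10.47 in wt embryos. Here the wt embryos stood further from each other than the nearer of them stood from the mutants. Its log2 fold change was -0.60 (interval -1.20 to 0.01, limma adjusted p = 0.256). Without wt replicate 1 it was -0.96 and without wt replicate 2 it was -0.23, so that its size rests on a single wt array. It is the only member whose interval reached 2-fold.

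Lin28b, the paralog of Lin28a with the same action on let-7 precursors, had a single probe set near the bottom of the scale. It read 3.94 and 4.10 in Gcnf-/- embryos, against 4.14 and 4.07 in wt embryos. The groups overlapped, and all 4 values lay under the lower quartile of the arrays, 5.16 to 5.19. The log2 fold change was -0.09 (interval -0.30 to 0.13, limma adjusted p = 0.645). Lin28b was thus hardly above the dimmest probe sets, and a change of it was not detectable with this probe set.

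Hmga2, an architectural chromatin protein of growing embryonic tissue and a classic let-7 target, had 4 probe sets, all below wt. Its brightest probe set, 1450780_s_at, read 12.35 and 12.33 in Gcnf-/- embryos, against 12.57 and 12.57 in wt embryos. The embryos of a genotype were almost identical and the groups did not overlap. The log2 fold change was -0.23 (interval -0.40 to -0.06, limma adjusted p = 0.161), or 85.4% of the wt signal.

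The other 3 probe sets of Hmga2 had log2 fold changes of -0.22, -0.24 and -0.19. Only the dimmest of them, 1446196_at, had overlapping groups, with 6.99 and 6.83 in Gcnf-/- embryos, against 6.98 and 7.21 in wt embryos. With each array left out in turn the brightest probe set stayed between -0.24 and -0.22, while 1450781_at spanned -0.31 to -0.16 and 1446196_at spanned -0.30 to -0.07. The 4 probe sets of Hmga2 thus shared their direction. None passed the adjusted test, but with an intensity trend 1450780_s_at (limma adjusted p = 0.0277) and 1422851_at (limma adjusted p = 0.0391) passed an adjusted p of 0.05, short of 2-fold. In that setting 2694 of all probe sets passed whatever the fold, against 439 in the main comparison.

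Trim71, a ubiquitin ligase and RNA-binding repressor known as Lin41 in the worm and a let-7 target there too, had 2 probe sets on opposite sides of 0. The brighter, 1453599_at, read 11.80 and 11.96 in Gcnf-/- embryos, against 11.43 and 11.84 in wt embryos. The groups overlapped and wt replicate 1 was the lowest of the 4. Its log2 fold change was 0.24 (interval -0.14 to 0.63, limma adjusted p = 0.445), and 0.04 without wt replicate 1.

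The other probe set of Trim71, 1456673_at, read 10.82 and 11.07 in Gcnf-/- embryos, against 11.32 and 11.32 in wt embryos. Both mutants were lower, and they differed from each other by more than the wt embryos did. This gave a log2 fold change of -0.38 (interval -0.63 to -0.12, limma adjusted p = 0.142). The probe sets of Trim71 therefore give no common direction.

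Arid3a, an AT-rich DNA-binding transcription factor, had a single probe set, which read 10.48 and 10.34 in Gcnf-/- embryos, against 10.74 and 10.67 in wt embryos. The groups did not overlap. The log2 fold change was -0.30 (interval -0.50 to -0.09, limma adjusted p = 0.144), or 81.4% of the wt signal.

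Igf2bp1, which binds and stabilises mRNAs of growth genes in the embryo and is repressed by let-7, lay below wt in all of its 4 probe sets. The brightest, 1455223_at, read 11.87 and 12.03 in Gcnf-/- embryos, against 12.28 and 12.17 in wt embryos, without overlap. Its log2 fold change was -0.27 (interval -0.50 to -0.05, limma adjusted p = 0.190). The 4 probe sets ranged from -0.44 to -0.02.

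The lower end of this range was 1449210_at, which read 9.27 and 9.39 in Gcnf-/- embryos, against 9.81 and 9.72 in wt embryos. Its interval of -0.64 to -0.23 was the furthest from 0 of all members, and its limma adjusted p of 0.0859 was the lowest. It passed an adjusted p of 0.05, short of 2-fold, when probe sets with a mean signal under 6 were left out (limma adjusted p = 0.0460) and with an intensity trend (limma adjusted p = 0.0277). Of all probe sets, 1497 and 2694 passed in these settings whatever the fold, against 439 in the main comparison.

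The upper end was 1418761_at, which read 11.80 and 11.82 in Gcnf-/- embryos, against 11.84 and 11.82 in wt embryos. These values were almost equal, with a log2 fold change of -0.02 and an interval of -0.19 to 0.15. The platform table gives this probe set and 1449210_at the same source sequence, and their intervals do not overlap.

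Igf2bp3, the family member most restricted to embryonic and tumour tissue, had 6 probe sets that disagreed. The brightest, 1422610_s_at, read 12.11 and 12.08 in Gcnf-/- embryos, against 12.08 and 12.12 in wt embryos. The groups overlapped and the log2 fold change was 0.00 to 2 decimals (interval -0.18 to 0.17, limma adjusted p = 0.987).

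A second, 1422611_s_at, read 11.33 and 11.40 in Gcnf-/- embryos, against 11.76 and 11.67 in wt embryos. It had the lowest value of the gene, -0.36 (interval -0.55 to -0.16, limma adjusted p = 0.103), without overlap of the groups. With an intensity trend it passed an adjusted p of 0.05 (limma adjusted p = 0.0223), as did 2694 of all probe sets. The source sequence in the platform table is the same for 1422610_s_at and 1422611_s_at as well.

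The probe set 1453957_a_at of Igf2bp3 went the other way. It read 9.88 and 9.71 in Gcnf-/- embryos, against 9.57 and 9.58 in wt embryos, and was the only member with both mutants above both wt embryos. Its log2 fold change was 0.22 (interval 0.00 to 0.43, limma adjusted p = 0.246), and 0.13 without Gcnf-/- replicate 1. The remaining 3 probe sets of Igf2bp3 lay at -0.12, -0.14 and -0.20, all without overlap and with intervals that span 0.

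**Figure D2:**
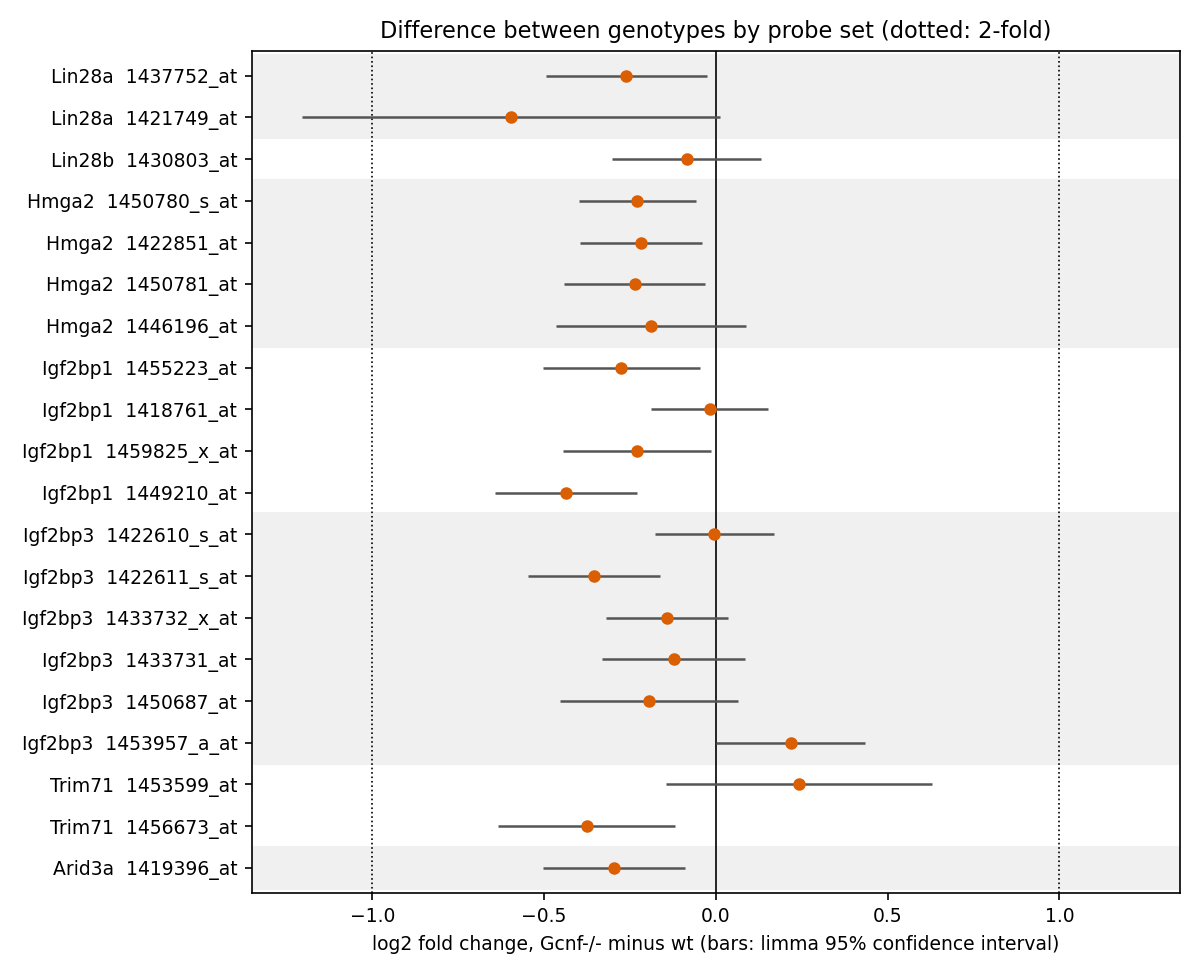
Log2 fold change of each probe set (horizontal axis, Gcnf-/- minus wt) with limma's 95% confidence interval as a bar (n = 2 embryos per genotype), and dotted lines at a 2-fold change. Of the intervals, 10 lie wholly below 0, 1 lies above it and 9 span it, and only that of Lin28a 1421749_at reaches 2-fold.

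Most probe sets kept their direction when single arrays were left out, although not their size. In the 15 probe sets wholly below wt and the 1 wholly above, leaving out an array could not change the sign. The number of probe sets below wt was 18 without Gcnf-/- replicate 1 and 17 without Gcnf-/- replicate 2, against 18 without wt replicate 1 and 17 without wt replicate 2. Over every setting tried, 17 of the 20 probe sets stayed below 0. Renormalising could change the sign of a probe set, and leaving out an array could do so only where the groups overlap. The other settings leave the log2 fold change as it is.

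**Figure D3:**
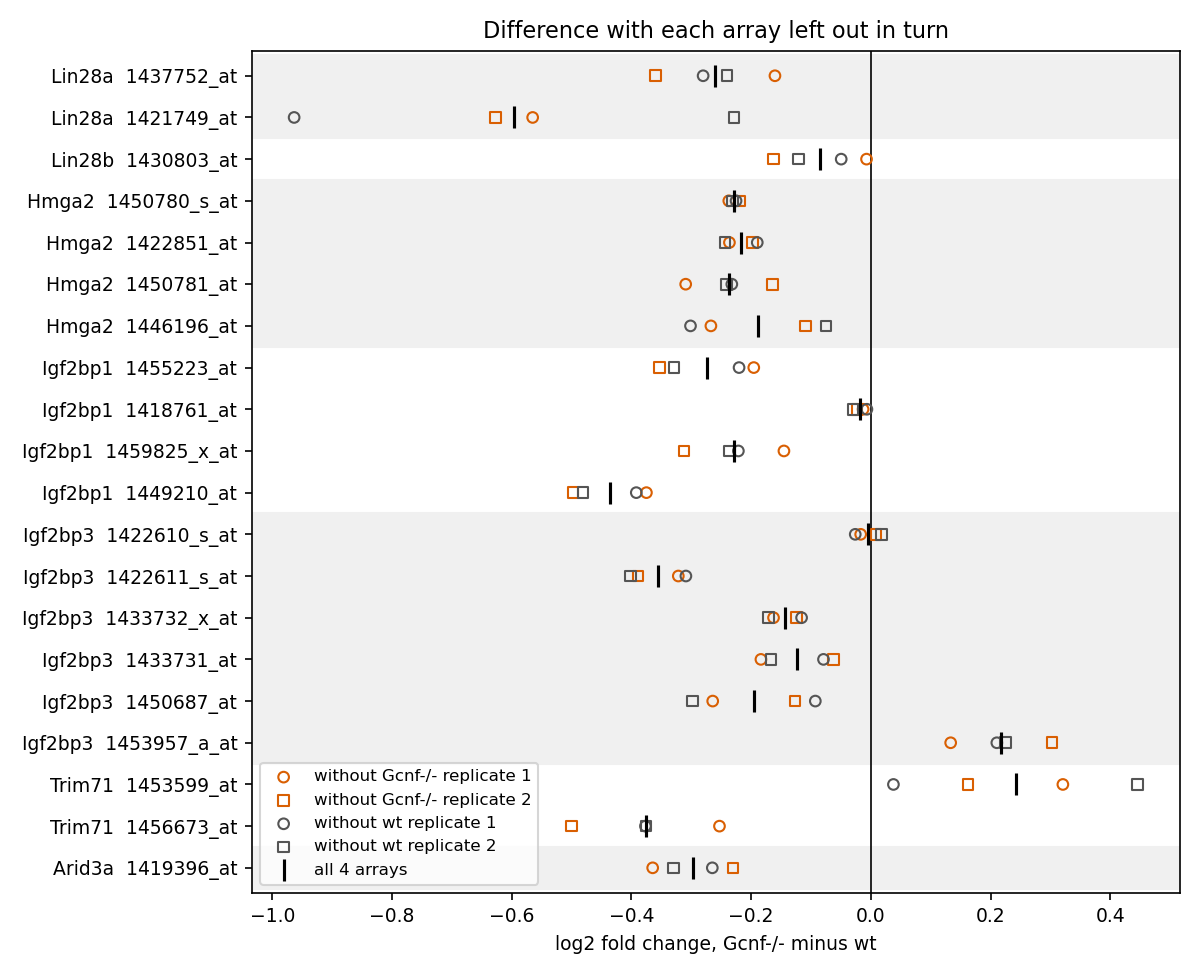
Log2 fold change (horizontal axis, Gcnf-/- minus wt) of each probe set with 1 array left out (orange for a Gcnf-/- array, grey for a wt array, circles and squares for replicates 1 and 2) and with all 4 arrays (black bar). Hmga2 1450780_s_at keeps to -0.24 to -0.22, whereas Lin28a 1421749_at spans -0.96 to -0.23 and Trim71 1453599_at spans 0.04 to 0.45.

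Genes around the circuit were described from lists, by brightest probe set. Over all genes, limma called 0.121% lower and 0.423% higher at an adjusted p of 0.05 with 2-fold, 0.374% lower and 1.02% higher without the fold threshold, and 11.9% lower and 11.9% higher at an unadjusted p under 0.05. A list for let-7 processing and decay held 24 genes, among them the Ago and Tnrc6 genes, whose proteins act with mature miRNAs. Of the 24, 16 lay below wt and 8 above, with a median log2 fold change of -0.02, against -0.01 over all genes. In limma 0 passed either rule (5 lower and 1 higher at an unadjusted p under 0.05, against 11.9% each way over all genes). The smallest p in the list belonged to Syncrip, an RNA-binding protein, at -0.43 ± 0.08 (moderated SE, limma adjusted p = 0.0946). Dicer1, the enzyme that cuts the let-7 precursor, read 10.27 and 10.24 in Gcnf-/- embryos, against 10.57 and 10.52 in wt embryos (limma adjusted p = 0.120). The uridyltransferases that tag let-7 precursors bound by Lin28, Tut4 and Tut7, had log2 fold changes of 0.19 and -0.02, and Dis3l2, the exonuclease that degrades the tagged precursor, at -0.01.

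Transcripts around let-7 genes were also read. RefSeq positions place let-7b and let-7c-2 inside Lncppara and let-7f-2 and miR-98 inside Huwe1, on unstated strands. They also place let-7e inside Spaca6 and let-7g inside Wdr82, which the list did not hold and which were not analysed here. Lncppara read 6.44 and 6.58 in Gcnf-/- embryos, against 6.43 and 6.57 in wt embryos. Huwe1, which encodes a ubiquitin ligase, stood at -0.28 ± 0.07 (moderated SE, limma adjusted p = 0.132). The noncoding Mir99ahg was listed as a host too, but these positions place no let-7 gene inside it, and it stood at -0.57 with an adjusted p of 0.257 in limma. A host transcript is not a measure of the mature miRNA.

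Further let-7 targets included lower and higher genes. Of 28 measured, 17 lay below wt and 11 above, with a median of -0.05 and a range of -0.50 to 0.34, and 0 passed either rule in limma (11 of 28 lower and 4 higher at an unadjusted p under 0.05, against 11.9% each way over all genes). Ccnd1, a cyclin that drives entry into the cell cycle, was nearest to the threshold. It read 11.25 and 11.27 in Gcnf-/- embryos, against 11.75 and 11.76 in wt embryos, a log2 fold change of -0.50 ± 0.07 (moderated SE, limma adjusted p = 0.0522). Rdx, a linker of actin to the membrane, stood at -0.35 (limma adjusted p = 0.101). The upper end of the range was Nr6a1, which read 11.87 and 12.14 in Gcnf-/- embryos, against 11.53 and 11.80 in wt embryos (limma adjusted p = 0.260).

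Transcripts known to be bound by Igf2bp proteins had no common direction. Of 8 measured, 4 lay below wt and 4 above, with a median of 0.00, and 0 passed either rule in limma (2 of 8 lower and 2 higher at an unadjusted p under 0.05, against 11.9% each way over all genes). Myc, whose mRNA Igf2bp1 stabilises, read 9.65 and 9.52 in Gcnf-/- embryos, against 9.92 and 9.96 in wt embryos (limma adjusted p = 0.110). Btrc, a substrate receptor of a ubiquitin ligase, stood at 0.37 (limma adjusted p = 0.130). Igf2, the growth factor for which the family is named, read 14.54 and 14.51 in Gcnf-/- embryos, against 14.53 and 14.48 in wt embryos.

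**Figure D4:**
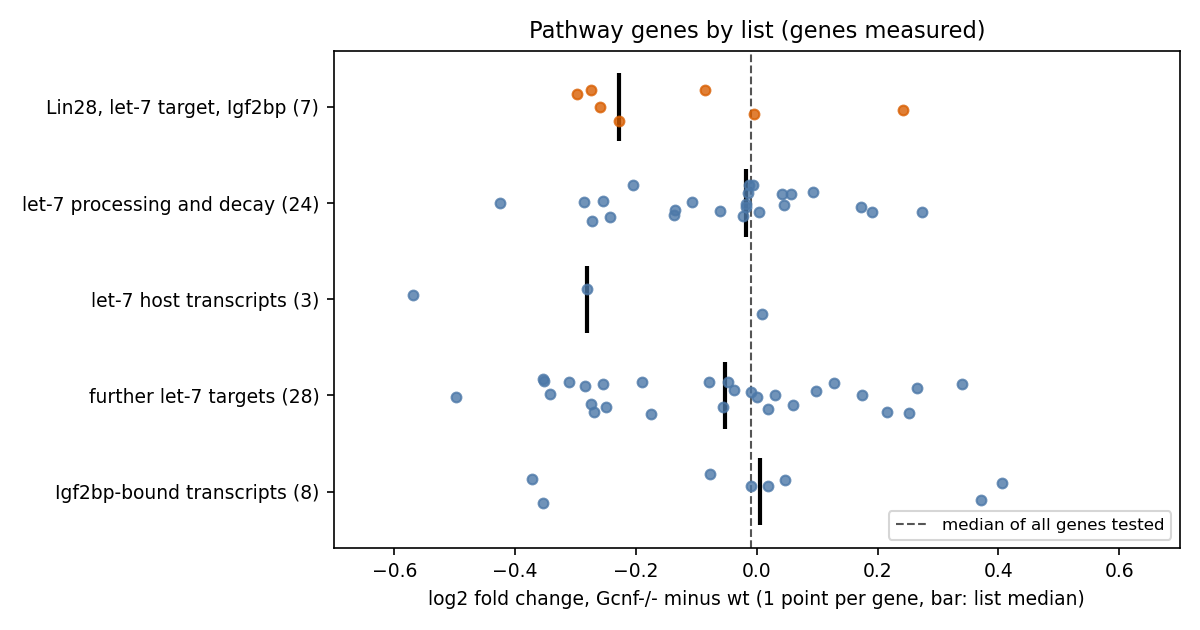
Log2 fold change of each measured gene by its brightest probe set (horizontal axis, Gcnf-/- minus wt, 1 point per gene) in 5 lists, with the list median as a bar and the median of all genes as a dashed line. The member median lies at -0.23, the 24 genes of the processing and decay list and 28 further targets centre on -0.02 and -0.05, and Trim71 is the member to the right of 0.

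Markers of several cell types also differed between the genotypes, and in several lists a single gene carried much of the difference. The summed linear signal of 6 germ cell and pluripotency markers was 3256 and 4363 in Gcnf-/- embryos, against 1334 and 1394 in wt embryos, with 5 of the 6 above wt. Without Pou5f1, a pluripotency factor that Nr6a1 is known to repress, the other 5 summed to 1636 and 1825 in Gcnf-/- embryos, against 1296 and 1331 in wt embryos. Most of the gap in the linear sum was thus that of Pou5f1. Such a sum gives little weight to dim markers. Nanog read 7.27 and 7.74 in Gcnf-/- embryos, against 3.87 and 4.33 in wt embryos. Like Pou5f1, it passed the rule with a 2-fold change (limma adjusted p = 0.0136 for Nanog). Tfap2c, at 0.99, passed without the fold threshold only (limma adjusted p = 0.0458).

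The sum over 6 neural progenitor markers was 7097 and 6696 in Gcnf-/- embryos, against 6038 and 5629 in wt embryos, with 3 of 6 below wt. Without Fabp7, a fatty acid binding protein of radial glia, it was 5556 and 5402 in Gcnf-/- embryos, against 5793 and 5170 in wt embryos. The separation of the neural sums was thus that of Fabp7, and the other 5 markers overlapped.

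Over 6 somite and presomitic markers the sum was 3177 and 3134 in Gcnf-/- embryos, against 3990 and 3665 in wt embryos, with 3 of 6 below wt. For 5 tailbud markers it was 1701 and 2129 in Gcnf-/- embryos, against 1552 and 1782 in wt embryos. The somite sums lay below wt, also without Meox1, the marker that differed most (2300.0 and 2359 in Gcnf-/- embryos, against 2567 and 2532 in wt embryos), and the tailbud sums overlapped.

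Heart muscle markers summed to 40436 and 38519 in Gcnf-/- embryos, against 28760 and 33072 in wt embryos, and all 6 lay above wt. The sums of erythroid markers were 104713 and 99837 in Gcnf-/- embryos, against 91947 and 95082 in wt embryos, with all 6 above wt. Both lists kept their groups apart without the marker that differed most. The endoderm sums overlapped, at 67776 and 59150 in Gcnf-/- embryos, against 72710 and 67396 in wt embryos, with 4 of 6 below wt. Sox17 in this list went the other way, with 10.56 and 10.79 in Gcnf-/- embryos, against 9.05 and 9.39 in wt embryos. It passed the rule with a 2-fold change (limma adjusted p = 0.0338).

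Macrophage markers summed to 678 and 640 in Gcnf-/- embryos, against 951 and 925 in wt embryos, with 4 of 6 below wt. Without Fcgr3, an antibody receptor, they summed to 514 and 514 in Gcnf-/- embryos, against 551 and 528 in wt embryos, a much smaller gap. Fcgr3 itself, at -1.47, was lower by the rule with a 2-fold change (limma adjusted p = 0.0305). For 4 measured trophoblast markers the sums were 642 and 728 in Gcnf-/- embryos, against 601 and 570 in wt embryos, and without Hand1 the sums overlapped. With all measured markers, the sums lay above wt in the germ cell, neural, heart, erythroid and trophoblast lists and below it in the somite and macrophage lists. The neural and trophoblast sums overlapped without Fabp7 and Hand1, and only 3 of the 6 somite markers lay below wt. Among all single probe sets, 27.3% lay wholly below wt and 23.5% wholly above it. RMA gives no value of 0, and Tpbpa, a trophoblast marker, lay near the bottom of the scale in the 4 embryos (4.01 and 4.32 in Gcnf-/- embryos, against 3.98 and 4.14 in wt embryos). The part of these cell types, of embryo sex and of the 18S and poly-A spike signals in the members' values was not tested.

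The promoters of the members were searched for the binding letters of Nr6a1. Nuclear receptors of this kind bind the hexamer AGGTCA, which Nr6a1 prefers extended to TCAAGGTCA or repeated without a gap. RefSeq promoters (250 bases before to 50 after the start on GRCm38.p6) were at hand for 7 of the 9 listed genes, Hmga1 and Igf2bp2 included, with 8 promoters in all. Igf2bp1 and Arid3a were not covered, and the windows of Hmga1 overlap each other. None of the 8 holds AGGTCA on either strand, which 16.3% of the 32851 promoters in the table do, and the longer TCAAGGTCA, which contains it, is in 0.423% of them. This says only that the letters are not in these windows.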

How the data were processed

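Whole-embryo RNA of 2 Gcnf-/- and 2 wt embryos was profiled on 4 arrays. The authors deposited log2 values from RMA, which corrects background, normalises arrays by quantiles and summarises each probe set. No source used here gives an RMA version. Of 45101 probe sets, 64 Affymetrix controls were left out of testing. Of the others, the platform annotation gave 34945 a single symbol, 932 several and 9160 none, and no member was named by a probe set with several. The probe set with the highest mean over the 4 arrays stood for its gene.

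A linear model with genotype alone was fitted to each probe set (limma 3.58.1, lmFit then eBayes, R 4.3.3), and p-values were adjusted by Benjamini-Hochberg across 45037 probe sets. The prior standard deviation was 0.0849 with 3.16 prior degrees of freedom. Log2 fold changes are Gcnf-/- minus wt. Intervals and SE are moderated. The number of arrays limits the precision, since the smallest two-sided p of an exact permutation of 2 against 2 arrays is 0.333. A call needed an adjusted p of 0.05, with or without a 2-fold change. The procedure was tested on simulated arrays.

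Members, lists and markers were chosen with earlier results of these data known. Named genes were all members, Nr6a1 and, in each list of genes around the circuit, the called genes or else the 2 with the smallest p. Tut4, Tut7, Dis3l2, Lncppara, Igf2, Tpbpa, Pou5f1, Nanog, Tfap2c, Sox17, Fabp7, Meox1, Fcgr3 and Hand1 were named after their values were seen. Marker sums without the marker that differed most were also added after seeing the data. Some listed genes and markers were not analysed here. Alternatives were a replicate block, leaving out each array, dropping dim probe sets, quantile normalisation a second time, centring arrays on their medians, eBayes with an intensity trend or robust, leaving out probe sets that can match several transcripts, and a gene's mean or lowest-p probe set.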

Additional observations from a re-analysis of the deposited data

How the results depend on the processing

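With 2 embryos per genotype, 0 members passed with a 2-fold change in all settings tried. Without the fold threshold 1 passed among probe sets with a mean signal of 6 or more (1497 of all probe sets there, against 439 in the main comparison) and 4 with an intensity trend (2694 of all), 2 of Hmga2, 1 of Igf2bp1 and 1 of Igf2bp3; the cause was not tested. Over all probe sets, the calls at 2-fold were 172 in the main comparison and 260 with an intensity trend, and the calls at any fold were 832 after a second quantile normalisation and 673 after median centring. With the replicate number as a block, 0 of all probe sets passed either rule (8358 at an unadjusted p under 0.05 in limma), on 1 residual degree of freedom. The labels do not say whether the replicate number is a pairing. Deviations of embryos with equal numbers had a correlation of 0.06 across probe sets, which with 2 embryos per genotype cannot settle this. Omitting single arrays (a lone embryo then borrows the spread of the other genotype) gave 0 to 9 calls under either rule over all probe sets, 9 of them without wt replicate 2 and 0 without any other array, and a member median of -0.23 to -0.16, lowest in size without Gcnf-/- replicate 1. The log2 fold change of Igf2bp3 1422610_s_at was 0.00 and reversed to 0.02 without wt replicate 2 and to 0.01 without Gcnf-/- replicate 2 (leave-one-out range -0.026 to 0.018). The member median was -0.30 with the lowest-p probe set of each gene, which selects larger differences by construction. Of 199 values of single probe sets under the alternatives, 192 kept their direction and side of the threshold. The replicate block, the dim filter, the intensity trend and robust eBayes leave the log2 fold change as it is. Direction could therefore not move in those settings, and the count says little about its stability. Signals near the bottom of the scale limit what Lin28b can show.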
